A study of Drosophila melanogaster with 4 samples.

Results

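Chromosome 4 and the mapped heterochromatin scaffolds of Drosophila melanogaster held 202 of the 14384 Su(H) peaks that the authors deposited for the cell line Kc167. They were taken by sequence name, which gave 98 peaks on chromosome 4 and 104 on the 5 scaffolds 2LHet, 3LHet, 3RHet, XHet and YHet. Of the scaffold peaks, 74 lay on 3LHet, 24 on 3RHet, 3 on 2LHet, 2 on XHet and 1 on YHet. Peaks of 2L (2267), 3L (2183), 3R (3608) and X (2500) served for comparison. Binding was measured by chromatin immunoprecipitation and sequencing (ChIP-seq) with 3 ChIP libraries and 1 input library, the input being sheared chromatin that was not immunoprecipitated. Both kinds of library came from Kc167, an established line derived from embryos, with the labelled genotype se/e, stage late embryonic and sex female. Cells were fixed with 1.8% formaldehyde for 15 minutes, and the ChIP used a polyclonal rabbit antibody against residues 259 to 594 of Su(H). The authors gave 1 list of peaks for the series and no value per library, so no value below has a replicate error and the depth of the libraries is unknown. The intervals and tests below take peaks as independent, although peaks lie in groups, so the intervals are too narrow and the p-values too small.

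Su(H), Suppressor of Hairless, is the DNA-binding protein of the Notch pathway. Without a Notch signal it sits on DNA with the co-repressor Hairless, and with the released intracellular part of Notch it activates transcription. Chromosome 4, the dot chromosome, is the smallest of the fly. Its gene-bearing part is unusual in carrying active genes among repeats and heterochromatin proteins such as HP1a. The Het scaffolds are the assembled pieces of pericentric heterochromatin (and, in YHet, of the Y) that could be assigned to a chromosome but stand apart from the arm sequences. Positions here are in FlyBase release 5, per the header of the peak list. Genes were not assigned to peaks, since no annotation of that release was used here.

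Chromosome 4 had scattered peaks, few of them very high, with 3 high ones close together near its middle. Its 98 peaks covered 62.5 kb, or 4.84% of its length, against 7.66% on 2L, 7.05% on 3L, 9.67% on 3R and 8.95% on X. Each length is the end position of the last peak on the sequence, which is 1291260 for chromosome 4. The median score was 17.1 (exact 95% interval of the median 14.9 to 21.8), against 17.4 on 2L, 17.1 on 3L, 14.9 on 3R and 15.8 on X. The score is the authors' value per peak. The deposit does not state its scale, and 67.6% of the scores of the whole list matched −log10 of a Poisson p-value against a single background. The interval of chromosome 4 included the median of each arm, and 46.9% of its peaks (exact 95% interval 36.8% to 57.3%) were weak, that is in the lower 50% of scores of the list, against 44.4% to 56.6% on the arms. The values lay further apart at the upper end of the range. Only 10% of the peaks on chromosome 4 exceeded a score of 49.3, whereas on 2L, 3L, 3R and X this level stood at 97.0, 133, 88.5 and 127.

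**Figure D1:**
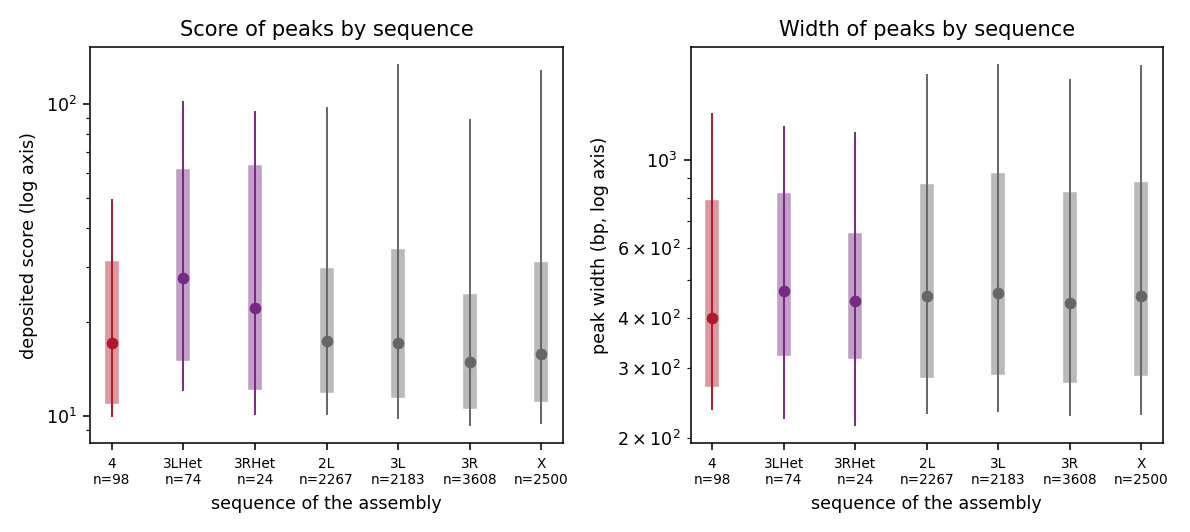
Deposited score (left, log axis) and width in bp (right, log axis) of the peaks on chromosome 4, on 3LHet and 3RHet, and on 2L, 3L, 3R and X, with the number of peaks under each name. Points are medians, thick bars span the middle 50% and thin lines the 10th to the 90th percentile. The upper line of chromosome 4 ends at a score of 49.3, below that of every other sequence drawn. The median scores of 3LHet and 3RHet lie above those of the arms.

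Strong peaks, defined as the 10.0% of the whole list with the highest scores (106.8 or above), numbered 4 on chromosome 4. This is 4.08% of its peaks (exact 95% interval 1.12% to 10.1%), against 9.44% on 2L, 11.6% on 3L, 9.12% on 3R and 11.4% on X. The interval included the values of 2L and 3R and the 10.0% of the list, and it ended below those of 3L and X. With the highest 25% of scores in place of 10%, chromosome 4 had a share of 26.5%, within the 20.4% to 28.5% of the 4 arms. The peak from 521529 to 524848 had the highest score, 506.37, and ranked 199th in the whole list. Next to it, 528 bp away, lay the peak from 525377 to 529499 with a score of 403.77, which was also the widest of the chromosome at 4123 bp. The third strong peak, from 577041 to 578841, had a score of 345.41. The fourth, from 980357 to 981227, had a score of 107.23 and so lay just above the limit. The fold is the count that would give a score against the genome-wide background, divided by that background. It was 6.09 and 5.41 at the first pair, 4.99 at the third and 2.94 at the fourth. The third score was not one that the genome-wide background allows, so 4.99 is only an upper limit of the fold over its own background.

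Below these 4 there was a wide step. The next in order were the peaks from 1289860 to 1291260 (score 78.7), from 1272171 to 1272803 (76.62) and from 541730 to 543972 (68.64). They were followed by a neighbouring pair, from 925624 to 926910 (62.61) and from 926968 to 928653 (54.0), which lay 57 bp apart. The tenth, from 827672 to 828790, had a score of 49.85, and its nearest neighbour was 25645 bp away. Widest after the peak at 525377 were the top peak (3320 bp), the peak at 541730 (2243 bp), the peak from 676790 to 678854 (2065 bp, score 45.05) and the peak at 577041 (1801 bp). Peaks of 1 kb or more made up 16.3% on chromosome 4 (16 peaks, exact 95% interval 9.63% to 25.2%) and 19.1% of the whole list. The median width was 400.5 bp on chromosome 4 (exact 95% interval 306 to 496), against 455 bp on 2L, 463 bp on 3L, 436 bp on 3R and 454.5 bp on X, and the interval included each of these values. As on the arms, high peaks were wide, with a Spearman's rho between score and width of 0.73 over the 98 peaks of chromosome 4 and of 0.74 to 0.76 on the 4 arms. It was 0.59 over the 104 Het peaks, 0.60 over the 74 of 3LHet and 0.49 over the 24 of 3RHet.

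**Figure D2:**
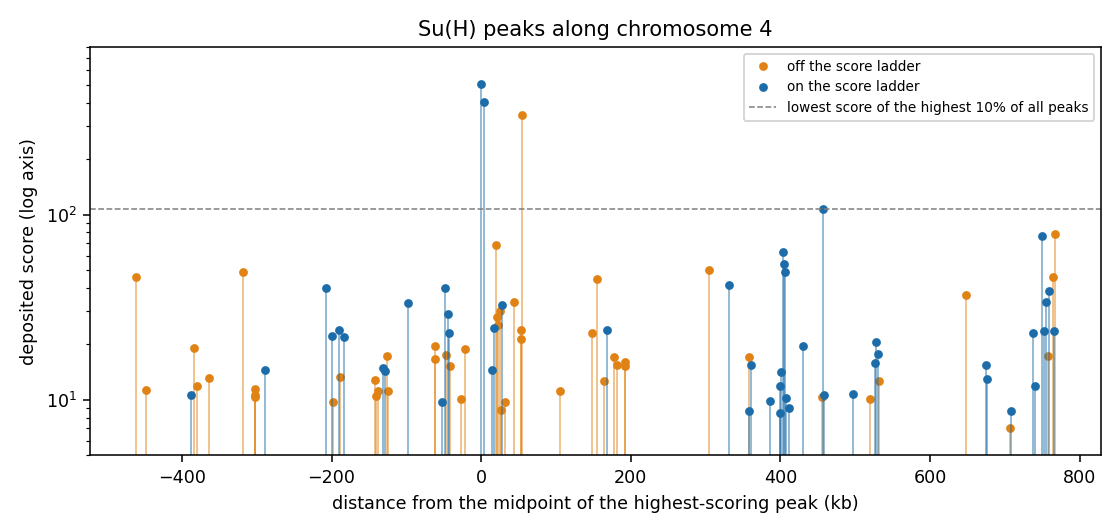
Deposited score (log axis) of each of the 98 peaks on chromosome 4 against its distance in kb from the midpoint of the highest-scoring peak. Colours give the peaks on and off the ladder of scores that the genome-wide background allows, and the dashed line is a score of 106.8. The 3 highest peaks lie within 60 kb of each other, and the only other strong peak is the one with a score of 107.23.

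Peaks were unevenly placed along chromosome 4. With limits chosen after the values were seen, the stretch from 450 to 600 kb held 25 of the 98 peaks, 3 of the 4 strong ones and 25.05 of the 62.5 kb covered. It had 167 peaks per Mb against 64.0 per Mb on the rest of the chromosome, and its median score was 23.9 (exact 95% interval of the median 17.4 to 30.2) against 15.3 (12.9 to 18.9). Its median width was 734 bp, against 367 bp on the rest. Counted in windows of 50 kb, the most peaks lay from 1250001 to 1300000, with 10 peaks and a highest score of 78.7. The windows from 450001 to 500000, from 500001 to 550000 and from 900001 to 950000 had 9 peaks each, and those from 350001 to 400000 and from 550001 to 600000 had 7 each. The highest score in these windows ran from 17.1 (350001 to 400000) through 39.9 (450001 to 500000), 62.6 (900001 to 950000) and 345.41 (550001 to 600000) to 506.37 (500001 to 550000). Of the 26 windows, 4 held no peak. The first of these was the start of the chromosome, where the first peak began at 61882. The longest gaps between neighbouring peaks ran from 1054760 to 1171153 (116.4 kb), from 716075 to 827672 (111.6 kb), from 234459 to 316169 (81.7 kb), from 74829 to 135189 (60.4 kb) and from 578841 to 628064 (49.2 kb).

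Neighbouring peaks on chromosome 4 stood further apart than on the arms. The median distance between midpoints was 3813 bp (exact 95% interval 2607 to 6353), against 1569.5 bp on 2L, 1820.5 bp on 3L, 1634.5 bp on 3R and 1748 bp on X. On chromosome 4, 30 of 97 gaps between the facing edges of neighbours were under 1 kb, or 30.9% (exact 95% interval 21.9% to 41.1%), against 54.6% over the whole list. The share was 59.1% on 2L, 52.9% on 3L, 56.7% on 3R and 54.4% on X. Of the arms, 3L had the lowest share, with an interval of 50.8% to 55.0% that lay above the one of chromosome 4. The same order held with limits of 500 bp (19.6% on chromosome 4 against 38.7% to 41.8% on the arms) and 2 kb (40.2% against 65.9% to 71.3%).

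**Figure D3:**
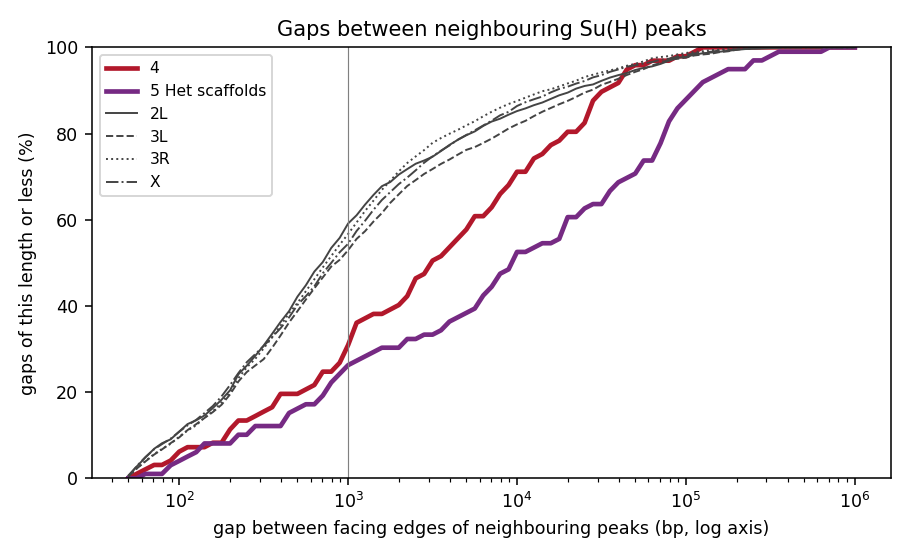
Share of gaps between neighbouring peaks (vertical axis, %) that are no longer than the length on the horizontal axis (bp, log axis), for chromosome 4, the 5 Het scaffolds together, and 2L, 3L, 3R and X. The vertical line marks 1 kb, where chromosome 4 stands at 30.9% and the 4 arms at 52.9% to 59.1%.

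Whether chromosome 4 was poor in peaks depended on what was counted. Counted singly, chromosome 4 had 75.9 peaks per Mb (exact 95% interval 61.6 to 92.5). This was lower than on 3R (129 per Mb, ratio 0.59, adjusted exact binomial p = 8.0e-08), on X (112 per Mb, ratio 0.68, adjusted exact binomial p = 0.00017) and on 2L (98.7 per Mb, ratio 0.77, adjusted exact binomial p = 0.014). Against 3L (89.0 per Mb) the ratio of 0.85 missed the threshold of 0.05 (exact 95% interval 0.69 to 1.04, adjusted exact binomial p = 0.14). These are two-sided tests of 2 rates, adjusted by Benjamini-Hochberg over the 4 pairs. They take peaks as independent and leave out the spread within an arm. Stretches of 3R as long as chromosome 4 held 65 to 285 peaks. Those with 65, 73 and 96 held fewer than the 98 of chromosome 4. Of the 73 such stretches on the 4 arms, 25 held fewer and 48 more. The p-values therefore cannot show that chromosome 4 lay outside the spread within an arm. After peaks under 1 kb apart were merged there were 52.7 regions per Mb on chromosome 4, against 40.4 on 2L, 41.9 on 3L, 56.0 on 3R and 51.0 on X. The ratios were then 1.30, 1.26, 0.94 and 1.03, and none passed the threshold (lowest adjusted exact binomial p = 0.14, for 2L and 3L). With peaks under 2 kb apart merged, a setting added after the data were seen, chromosome 4 had more regions per Mb than 2L (ratio 1.57, adjusted exact binomial p = 0.0065) and 3L (ratio 1.51, adjusted exact binomial p = 0.0070).

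The merged regions differed in make-up. Chromosome 4 had 68 of them, of which 47 consisted of a single peak. Single peaks made up 69.1% of its regions (exact 95% interval 56.7% to 79.8%), 54.9% of the regions of the whole list, and 51.6% to 56.7% of those of the 4 arms. Regions of 4 peaks or more numbered 1 on chromosome 4, or 1.47%, against 15.9% over the whole list. The share was 13.3% on 3L, 15.6% on X, 18.0% on 2L and 18.2% on 3R. The 1 such region of chromosome 4 ran from 925624 to 930770, and its highest score was 62.61. The widest region, from 521529 to 529499, joined the 2 highest peaks into 7971 bp, whereas the widest regions of the arms reached 23651 bp on 3L and 43079 bp on 3R. The median region was 584 bp wide on chromosome 4, against 982 to 1143.5 bp on the arms.

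A region takes the highest score of its peaks, and there were 1.44 peaks per region on chromosome 4 against 2.27 on the 4 arms together, so the share of strong regions also depends on the merging. On chromosome 4, 3 of 68 regions reached the score of a strong peak, or 4.41% (exact 95% interval 0.919% to 12.4%), against 19.7% of the 6539 regions of the whole list. The share was 20.6% on 2L, 22.6% on 3L, 18.2% on 3R (16.3% to 20.2%) and 22.0% on X. None of its 47 single-peak regions was strong, against 13.3% of those of the whole list. On 3R 9.77% of the single-peak regions were strong, and on X, 2L and 3L 14.9% to 16.1%. The median score of a region was 17.4 on chromosome 4 (exact 95% interval 14.9 to 22.8), within which lay the medians of 3R (17.5) and X (21.3), while those of 2L (23.2) and 3L (24.0) lay above it.

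**Figure D4:**
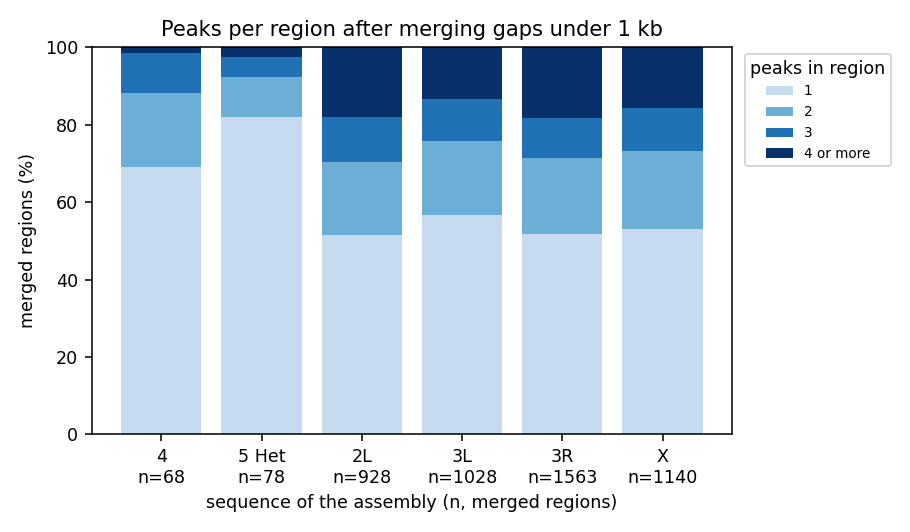
Share of merged regions (%) that hold 1, 2, 3 or 4 and more peaks, after peaks with under 1 kb between their edges were joined, for chromosome 4, the 5 Het scaffolds together, and 2L, 3L, 3R and X. The numbers of regions stand under the names. Regions of 4 or more peaks make up 1.47% on chromosome 4 and 13.3% to 18.2% on the 4 arms.

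Stretches of the arms as long as chromosome 4 gave a measure of how much such values vary. Laid end to end, 73 of them fit on 2L, 3L, 3R and X. With 98 peaks, chromosome 4 lay inside their range of 18 to 310 (median 140), above 25 of them. Its 4 strong peaks equalled 2 of the stretches, the other 71 held more, and the median stretch held 14. In share of strong peaks, chromosome 4 lay above 2 and below 71 of the stretches, whose range was 3.125% to 36.7%. In share of gaps under 1 kb it lay above 8 and below 65 of the stretches. Those 8 stretches, on 2L (3), 3L (4) and X (1), were sparse in another way. They held 18 to 60 peaks with median scores of 26.3 to 71.9, and 14.3% to 36.7% of their peaks were strong. Those 8 stretches thus had few but high peaks, whereas chromosome 4 had more peaks, also far apart, and 4.08% of them were strong. Not every stretch with fewer peaks than chromosome 4 was like those 8. The one on 2L from 16786381 to 18077640 had 77 peaks with a median score of 17.2, and 5.19% of them were strong. This comparison was added after the data were seen and is a description without a test.

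Isolated peaks, those with no other peak within 10 kb, made up 13.3% of chromosome 4 (13 peaks, exact 95% interval 7.26% to 21.6%), 3.35% to 6.78% of the 4 arms and 6.40% of the whole list. On chromosome 4 they had a median score of 19.4 (exact 95% interval 11.1 to 46.1), against 17.1 for the other 85 peaks. On the 4 arms together isolated peaks had a median score of 38.0 (exact 95% interval 31.1 to 45.2), against 15.6 (15.5 to 15.9) for the others. None of the 13 on chromosome 4 was strong (exact upper limit 24.7%), whereas 27.1% of those on the arms were (exact 95% interval 23.3% to 31.2%). The interval of the median on chromosome 4 included that of the arms, and the upper limit of the strong share lay below the 27.1% of the arms but inside its interval. The difference between chromosome 4 and the arms was not tested.

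The scores also carry information on the background. Peaks scored against the genome-wide background fall on a ladder of values. On chromosome 4, 51.0% lay off it (50 peaks, exact 95% interval 40.7% to 61.3%), against 32.4% of the whole list. The share was 54.0% on 2L, 35.8% on 3L, 23.1% on 3R and 24.0% on X. Peaks off the ladder made up a larger share of the first 800 kb than of the rest. The first 800 kb include the stretch from 450 to 600 kb, where 16 of 25 peaks lay off it. Up to 800 kb, a limit chosen after the values were seen, 40 of 59 peaks lay off the ladder (67.8%, exact 95% interval 54.4% to 79.4%). Beyond it 10 of 39 did (25.6%, 13.04% to 42.1%), which is close to the shares of 3R and X. The 2 sides had nearly the same number of peaks per Mb (73.8 and 79.4) and the same median score of 17.1. Both of the highest peaks, at 521529 and 525377, lay on the ladder although they are in the first stretch. Of the 73 arm stretches as long as chromosome 4, 62 had a smaller share off the ladder and 11 a larger one. The 2 stretches with a smaller share of strong peaks, both on 2L, had 51.25% and 67.6% off it. Just above chromosome 4 in strong share came a stretch of 2L (4.13%, with 71.1% off) and one of 3R (4.23%, with 17.6% off). The part of the local background in the low share of strong peaks on chromosome 4 was not tested.

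The Het scaffolds were sparser than chromosome 4, and the median score of their peaks was higher. The 5 scaffolds together had 21.3 peaks per Mb (exact 95% interval 17.4 to 25.8) by the end of the last peak of each, which covered 1.39% of that length. Their median score was 26.9 (exact 95% interval 21.3 to 37.1), above the medians of 14.9 to 17.4 on the 4 arms. On 3LHet alone it was 27.6 (20.1 to 37.1). The 22.2 of 3RHet alone had an interval of 12.85 to 55.3, which included the medians of chromosome 4 and of each arm. A median of this height was not particular to the scaffolds. The 8 sparse arm stretches described above, with 18 to 60 peaks each, had median scores of 26.3 to 71.9. In those stretches 14.3% to 36.7% of the peaks were strong. Weak peaks made up 27.9% of the peaks of the 5 scaffolds (exact 95% interval 19.5% to 37.5%), against 44.4% to 56.6% on the arms. The share of strong peaks was 11.5% (12 peaks, exact 95% interval 6.11% to 19.3%), with the 10.0% of the whole list inside the interval. Of these 12, 10 lay off the ladder, against 313 of the 1439 strong peaks of the whole list. Among peaks on the ladder the strong share was 3.64%, against 9.88% to 15.3% on the 4 arms. Peaks whose fold over their own background could reach 2 made up 44.2% of the Het peaks, 20.4% of those on chromosome 4 and 21.2% of the list. The median width of 461.5 bp (exact 95% interval 415 to 580) was close to the 436 to 463 bp of the arms.

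Spacing on the scaffolds was wide, with a median distance between midpoints of 9934 bp (exact 95% interval 6010 to 20298). Of the 99 gaps, 26 were under 1 kb (26.3%, exact 95% interval 17.9% to 36.1%), and 47.5% exceeded 10 kb, against 28.9% on chromosome 4 and 15.8% over the whole list. After merging, 64 of 78 regions were single peaks (82.1%, exact 95% interval 71.7% to 89.8%). Isolated peaks numbered 36, with a median score of 55.0 (exact 95% interval 34.9 to 84.6), against 19.9 (15.7 to 28.2) for the other 68. Of the isolated peaks 8 were strong (22.2%), against 23.7% of the isolated peaks of the whole list. Here, as on the arms, isolated peaks had the higher median score. The 2 medians were 59.7 and 22.1 on 3LHet and 44.9 and 13.15 on 3RHet, each pair with overlapping intervals. Strong were 5 of 20 isolated and 2 of 54 other peaks on 3LHet. On 3RHet none of 10 isolated and 2 of 14 other peaks were strong. Off the ladder were 47.1% of the Het peaks (exact 95% interval 37.2% to 57.2%), a share whose interval included the value of chromosome 4 (51.0%) and of 2L (54.0%) and lay above those of 3L, 3R and X.

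On 3LHet, which had the most peaks of the scaffolds, density and score differed between 3 stretches. The limits given here were chosen after the values were seen. Up to 1.25 Mb there were 19 peaks, none closer than 6395 bp to the next, with a median score of 77.9 (exact 95% interval 34.9 to 125). None of these was weak and 5 were strong. The lowest of them had a score of 16.69. From 1.25 to 2.15 Mb there were 22 peaks, or 24.4 per Mb, with a median score of 30.2 (20.1 to 48.0), of which 4 were weak and 2 strong. Beyond 2.15 Mb, 33 peaks lay within 0.364 Mb, or 90.7 per Mb, a density within the range of the 4 arms and chromosome 4. Their median score was 16.2 (exact 95% interval 13.3 to 21.6), 16 were weak and none was strong. Off the ladder were 78.8% of them (exact 95% interval 61.1% to 91.0%), against 36.8% (16.3% to 61.6%) in the first stretch and 18.2% (5.19% to 40.3%) in the middle one.

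The 3 highest peaks of 3LHet lay in its first stretch, from 570933 to 572312 (score 226.71), from 715316 to 715956 (183.9) and from 854508 to 855714 (176.17). Their folds over their own background were at most 4.07, 3.70 and at most 3.62. The widest peak, from 2400593 to 2404684, was 4092 bp wide and lay in the last stretch, yet its score was only 46.88. On chromosome 4 the peak of nearly the same width had a score of 403.77. In the middle stretch the largest group of the scaffolds, 8 peaks from 1279121 to 1286312, joined into 7192 bp with a highest score of 173.23.

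Density and score also differed along 3RHet, with limits chosen after the values were seen. Its first 1.5 Mb held 9 peaks, or 6.0 per Mb, with a median score of 55.3 (exact 95% interval 23.1 to 98.5) and no weak peak. The rest held 15 peaks, or 45.9 per Mb, with a median of 13.1 (10.4 to 22.9), 9 of them weak. The longest gap of all the members ran from 131890 to 790850 on 3RHet and was 659.0 kb long. The highest peak, from 1517910 to 1519544, had a score of 159.38 and was the widest at 1635 bp. It was the first of 5 nearby peaks, and the others had scores of 9.86 to 26.54. A gap of 1290 bp parted these 5 into merged regions of 2 and 3 peaks. The next highest were the peaks from 845662 to 846816 (112.75) and from 852626 to 853070 (98.53). Each of the 3 was off the ladder, with a fold over its own background of at most 3.47, 3.01 and 2.85.

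**Figure D5:**
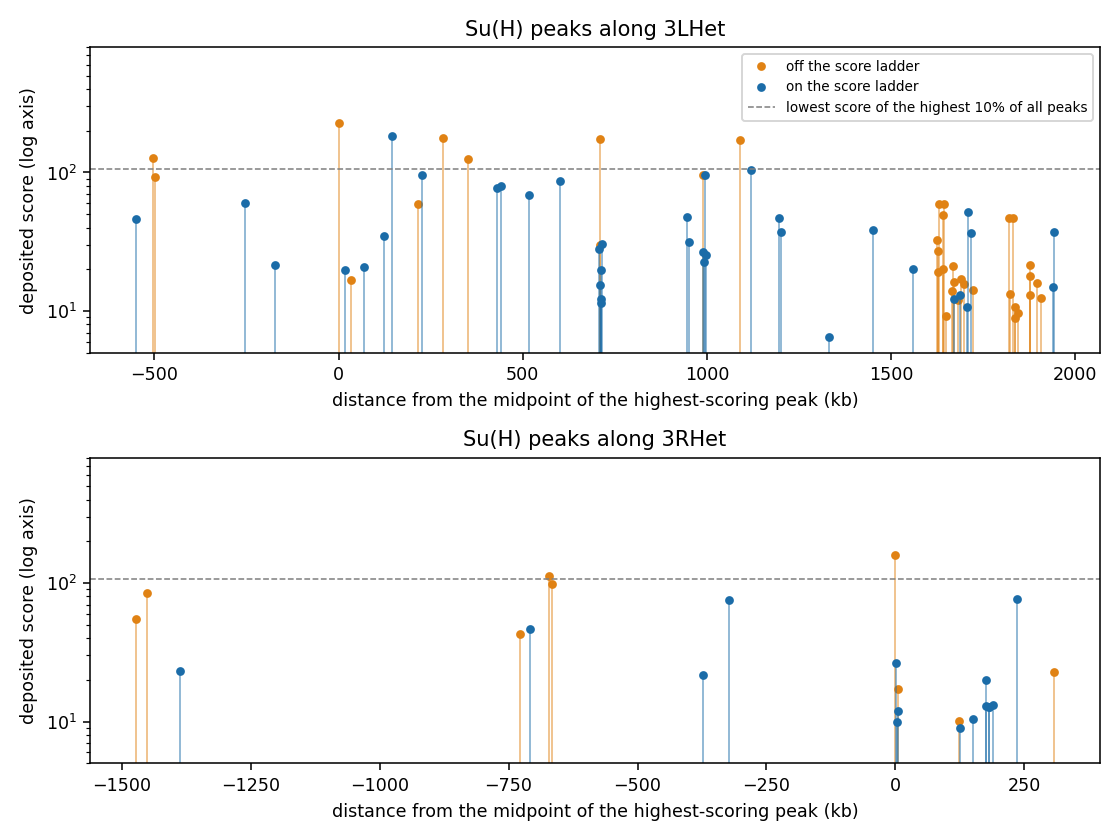
Deposited score (log axis) of each peak on 3LHet (74 peaks, top) and 3RHet (24 peaks, bottom) against its distance in kb from the midpoint of the highest-scoring peak of that scaffold, with colours and dashed line as for chromosome 4. On 3LHet the median score is 77.9 in the first 1.25 Mb and 16.2 beyond 2.15 Mb, and on 3RHet it is 55.3 in the first 1.5 Mb and 13.1 beyond.

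The other 3 scaffolds had 6 peaks in all. On 2LHet they lay from 123703 to 125174 (score 211.81), from 212874 to 213341 (54.73) and from 286010 to 287488 (287.3). The last was the highest of the Het members and, on the ladder, stood 4.55-fold over background. The 2 peaks of XHet, from 35165 to 35638 (35.74) and from 188653 to 188944 (24.93), were low and 153.0 kb apart. The single YHet peak, from 72043 to 73285, had a score of 257.79 and a width of 1243 bp, and it lay off the ladder. The cells are labelled female, and whether the reads of this peak came from a Y chromosome was not tested. With so few peaks, no spread can be given for these scaffolds. Whether reads of repeated sequence contributed to peaks on the scaffolds was not tested.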

How the data were processed

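The authors deposited 1 list of peaks, with a start, an end and 1 score per peak. It is in FlyBase release 5 coordinates and names MACS as its source, per the file headers and columns. BDGP5 is the build, and MACS2, BWA and CASAVA (versions 1.7.0.2 and 1.7.0.3) the tools, per the submitters' processing notes. For the calling threshold, the libraries used and any pooling, nothing is stated in the sources used here. The deposited score has no stated scale. Scores below 40 that at least 25 peaks had in common were matched to −log10 Poisson tails, which gave a background mean of 195.927, and a score within 0.0075 of a whole count was called on the ladder. The fold is the matched count over this mean. Off the ladder it is an upper bound of the fold over the peak's own background, if no background below this mean was used. It gives no upper bound of a peak's count over the genome-wide mean. Intervals of shares (Clopper-Pearson), of medians (binomial order statistics) and of rates are exact at 95% and cover counting error over peaks only. Rates were compared by a two-sided exact conditional binomial test. Named peaks are the 10 highest and 5 widest of chromosome 4, its 5 longest gaps and 5 richest windows of 50 kb with ties, the 3 highest and the widest of each Het scaffold, and every peak of scaffolds with 5 or fewer. Other peaks and regions named were chosen after their values were seen. The members, lists and tests were chosen with earlier results of these data known. Peaks of 2RHet were not analysed here. The gene table at hand is of release 6, so no gene was assigned and no sequence read. Functions were tested on simulated data. Computation used SciPy 1.17.1, pandas 2.3.3, NumPy 2.4.6, matplotlib 3.10.9 and Python 3.11.15.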

Additional observations from a re-analysis of the deposited data

How the results depend on the processing

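Merging neighbours changed the ratio of peaks per Mb on chromosome 4 over the arms. With peaks under 1 kb apart merged it turned to 1.30 for 2L, 1.26 for 3L and 1.03 for X, and it was 0.94 for 3R. With those under 500 bp apart merged it was 1.07 for 2L, 1.12 for 3L, 0.80 for 3R and 0.91 for X, and none of these 8 ratios passed the threshold. With those under 2 kb apart merged, chosen after seeing the data, it was 1.57, 1.51, 1.23 and 1.29 for 2L, 3L, 3R and X. Merging at 1 kb left 1.44 peaks per region on chromosome 4 and 2.27 on the 4 arms together, so the count fell further on the arms. With peaks on the ladder only, 2L (0.82) no longer passed and 3L (0.65) did. With the upper 50% of scores, or with lengths from the first to the last peak, each pair kept its direction and its side of the threshold. Some only just did. With the upper 50% of scores the adjusted exact binomial p was 0.047 for each of 2L, 3R and X. With lengths from the first to the last peak it was 0.047 for 2L. On chromosome 4 merging gave a median width of 584 bp and a median spacing of 9345.5 bp, and the upper 50% of scores a spacing of 8746.5 bp. On the Het scaffolds merging gave a median score of 40.7 and a spacing of 29105 bp, and the upper 50% of scores a spacing of 32556.5 bp. Peaks on the ladder only had a strong share of 3.64% there, against 9.88% to 15.3% on the 4 arms. The highest 25% of scores held 26.5% of the peaks of chromosome 4 and 49.0% of those of the Het scaffolds, against 20.4% to 28.5% on the 4 arms. The other 36 of 59 recomputed values, among them each one with a single Het scaffold left out, stayed within the interval or on the side of the threshold reported. No library depth is known, so no limit of detection can be given. No paired analysis was possible because the peak list is not split by library, so no replicate could be left out either.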
